A study of Homo sapiens with 12 samples.

Results

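The 10 genes described here encode extracellular ligands, secreted antagonists and nuclear factors of WNT signaling, and they were read by gene name from tables that listed 63677 gene identifiers. They comprise the ligands WNT5A, WNT5B and WNT7B, the secreted antagonists DKK1, DKK3 and SFRP1, the feedback inhibitor AXIN2 and the DNA-binding factors LEF1, TCF7L1 and TCF7L2. All 10 passed the filter of a mean of at least 1 TPM, a measure of transcript abundance scaled for length and library, that was applied before testing. RNA had been sequenced from 12 cultures of DAOY, an established human medulloblastoma cell line. The cells were either wild type (WT) or from a line with CRISPR/Cas9 inactivation of NOTCH1 (NOTCH1KO) or NOTCH2 (NOTCH2KO). Each of the 3 genotypes was grown on a coating of Fc, the control protein, or of the Notch ligand Jagged1. On each coating the cells received DAPT, an inhibitor of the γ-secretase that releases the active Notch fragment, for 12 h, or the solvent DMSO. Every combination of genotype, plate and treatment had 1 library. Nothing in the labels or methods said whether a knockout line came from 1 clone or several, so genotype and line cannot be told apart.

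In the canonical branch of the pathway, a WNT protein binds a Frizzled receptor and an LRP5 or LRP6 co-receptor, the complex that degrades β-catenin is shut off, and β-catenin enters the nucleus to act with LEF1 and the TCF factors. DKK1 blocks the LRP co-receptors, SFRP1 binds WNT proteins outside the cell, and AXIN2 is both a scaffold of the degradation complex and a widely used target gene of β-catenin. WNT5A and WNT5B are best known for signaling that does not need β-catenin. One molecular subgroup of medulloblastoma is defined by an active WNT pathway, with high expression of WIF1 and DKK2, whereas DAOY is commonly used as a model of the SHH subgroup.

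RefSeq promoter windows (GRCh38.p14, 250 bases before to 50 bases after a start site) were at hand for 6 of the 10 genes, in 10 windows. Those of DKK1 and WNT5A are shown because these 2 genes had the largest difference between cell lines and the largest difference with DAPT, as described below. Each is written 5′ to 3′ on the strand of the gene. In 6 of the 10 windows, bases after the start site were found in a transcript of the gene in GENCODE release 29. Both WNT5A windows were among these 6, and the DKK1 window was not. Capitals mark TGGGAA, the core of sites bound by the Notch partner RBPJ, or CTTTGA and CTTTGT, cores of sites bound by LEF1 and the TCF factors, each searched on both strands, so that TTCCCA and TCAAAG are reverse matches.
DKK1, plus strand, chr10:52314031-52314330: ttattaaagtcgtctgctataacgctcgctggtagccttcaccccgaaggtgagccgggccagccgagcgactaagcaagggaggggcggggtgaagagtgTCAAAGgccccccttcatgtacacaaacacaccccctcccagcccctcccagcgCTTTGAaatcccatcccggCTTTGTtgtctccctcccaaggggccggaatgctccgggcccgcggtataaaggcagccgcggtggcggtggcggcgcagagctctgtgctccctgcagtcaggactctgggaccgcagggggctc
WNT5A, distal start site, minus strand, chr3:55487257-55487556: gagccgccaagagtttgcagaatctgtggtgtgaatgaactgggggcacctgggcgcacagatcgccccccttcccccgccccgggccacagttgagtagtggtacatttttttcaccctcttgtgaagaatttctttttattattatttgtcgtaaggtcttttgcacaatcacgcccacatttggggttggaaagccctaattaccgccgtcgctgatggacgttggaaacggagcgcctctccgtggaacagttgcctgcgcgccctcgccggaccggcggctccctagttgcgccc
WNT5A, proximal start site, minus strand, chr3:55481349-55481648: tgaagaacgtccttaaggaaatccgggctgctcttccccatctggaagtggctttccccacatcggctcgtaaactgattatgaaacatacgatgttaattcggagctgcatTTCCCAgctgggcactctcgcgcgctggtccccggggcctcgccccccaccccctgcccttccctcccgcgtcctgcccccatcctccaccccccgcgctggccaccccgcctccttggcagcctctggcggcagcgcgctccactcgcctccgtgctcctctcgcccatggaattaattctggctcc

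The DKK1 window held 3 matches to the TCF and LEF core, which began at bases 102, 156 and 175 of the window, and no match to the RBPJ core. The proximal WNT5A window held 1 match to the RBPJ core, on the opposite strand at base 113, and the distal window held neither motif. Among the windows not printed, LEF1 and the downstream window of WNT5B each had 1 RBPJ core, and 1 of the 3 windows of TCF7L2 had a TCF and LEF core. Both motifs are short and common. Of 35116 promoter windows of the same length, 24.0% held the RBPJ core and 26.2% a TCF and LEF core, so the matches are given as a description of the sequences.

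Depth was estimated from the deposited coverage and FPKM values at a read length of 51 bases, and reads were not counted. The estimate was between 18.3 and 22.4 M reads per library. By it, 1 read in a transcript of 1 kb was worth between 0.0947 and 0.117 TPM. NOTCH1 stood at 0.565 ± 0.249 TPM in NOTCH1KO against 3.19 ± 0.337 in WT (SD, n = 4 cultures, log2 difference -1.43, limma adjusted p = 0.000436). NOTCH2 stood at 50.7 ± 7.95 in NOTCH2KO against 80.7 ± 9.56 in WT (-0.67, adjusted p = 0.00879), so each targeted transcript was lower in its own line but still read. HEY1, a Notch target, averaged 35.5 TPM on Jagged1 in DMSO, 10.1 on Fc in DMSO and 9.27 on Jagged1 with DAPT, and neither of these differences passed the test (adjusted p = 0.271 and 0.151). NRARP, another target, averaged 4.61 TPM on Jagged1 in DMSO and 2.86 with DAPT (adjusted p = 0.344). Of the 6 Notch targets tested, HES1 was called lower with DAPT on Jagged1, at 30.8 ± 5.41 against 68.0 ± 14.5 TPM (-1.11, adjusted p = 0.0478), and the median difference of the 6 was -1.12. HEY1 reached 56.6 TPM in WT, 31.5 in NOTCH1KO and 18.3 in NOTCH2KO in the Jagged1 culture with DMSO. Of the WNT-subgroup markers, WIF1 was at most 0.362 TPM, DKK2 between 0.256 and 3.72, EMX2 between 0.900 and 4.30, GAD1 between 4.10 and 15.4 and TNC between 148 and 347. Of the SHH-subgroup markers, HHIP was between 5.53 and 13.7 TPM, PDLIM3 between 6.43 and 22.6, EYA1 between 1.31 and 3.70 and SFRP1 between 28.8 and 128. The fifth, ATOH1, was at most 0.252. The SHH-subgroup list and the WNT-subgroup list each had 4 of 5 genes at a mean TPM of at least 1, and the granule neuron lineage list had 5 of 9. Its factors ATOH1, BARHL1 and NEUROD1 were at most 0.252, 0.128 and 0.198 TPM, whereas PAX6, ZIC1 and ZIC2 averaged 16.1, 11.6 and 12.4. VIM, a mesenchymal marker, was between 2784 and 6461 TPM, and the 7 blood and endothelial markers summed to between 0.11 and 1.26 TPM. Of the epithelial genes, KRT18 and KRT8 were between 463 and 893 and between 100.05 and 153 TPM, but CDH1, EPCAM and KRT19 were at most 0.349, 0.806 and 2.30. No tumours of known subgroup were read beside the line, so these levels were not used to assign it to a subgroup.

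On the TPM scale, which is per transcript length, WNT5A was the most abundant of the 10 genes, with a mean of 120 ± 57.5 TPM (SD over 12 libraries). The secreted antagonists followed, DKK3 at 79.6 ± 40.8, SFRP1 at 63.3 ± 32.5 and DKK1 at 50.8 ± 39.7 TPM. WNT7B (29.8 ± 9.85), LEF1 (22.2 ± 5.29) and WNT5B (14.9 ± 7.23) came next, ahead of TCF7L2 (9.28 ± 2.35), TCF7L1 (6.36 ± 2.05) and AXIN2 (2.16 ± 1.02). Neighbours in this order overlapped in their ranges over the libraries in every case. The widest relative range was that of DKK1, whose highest library was 12.1 times its lowest, and the narrowest was that of LEF1 at 2.05 times. Among all 19 WNT ligand genes, 4 had a mean TPM of at least 1, the fourth being WNT3 (between 4.38 and 7.76), and 6 were listed at 0 in every library. Among the 16 receptor genes 14 had a mean of at least 1 TPM, led by RYK and PTK7, with medians of 99.4 and 67.6 TPM.

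**Figure D1:**
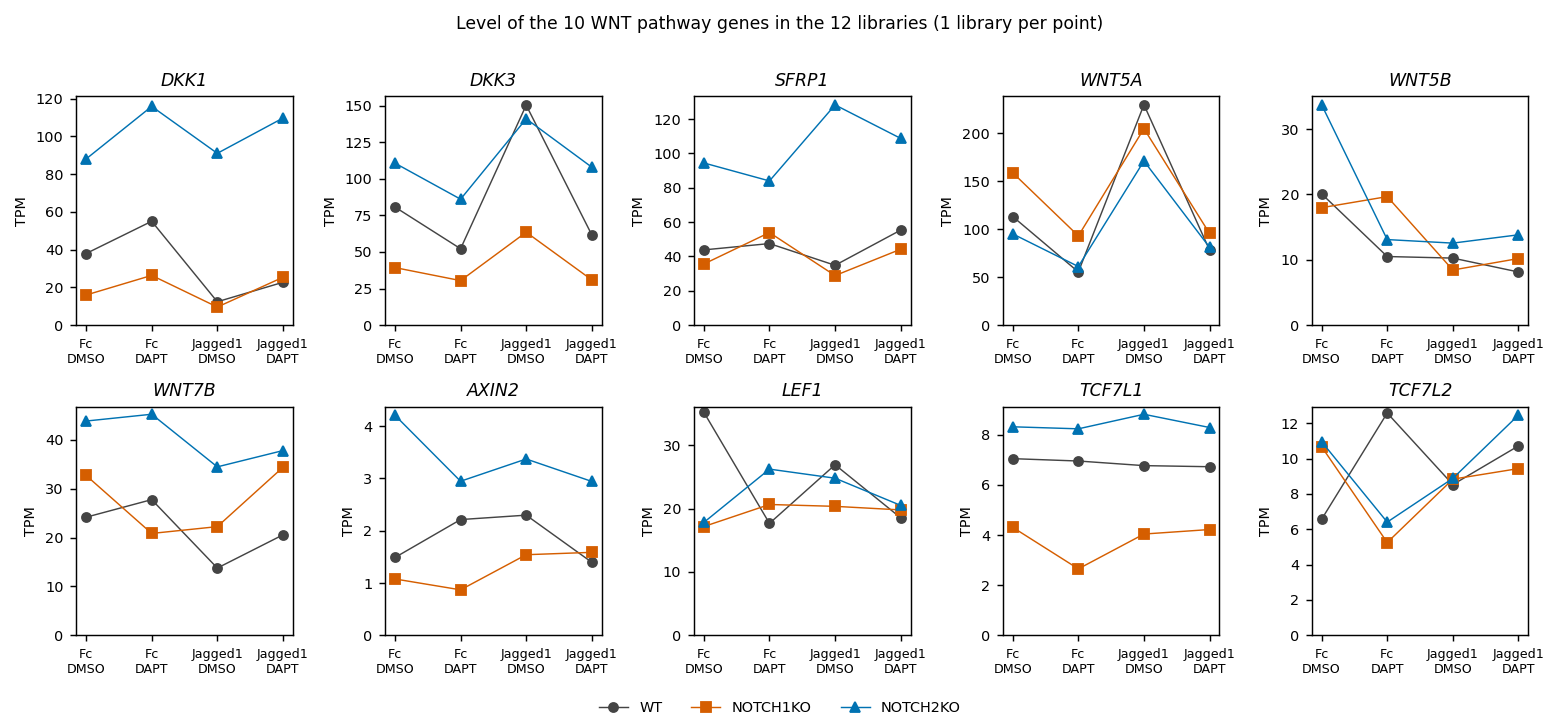
TPM of each gene (vertical axes, from 0) in the 4 cultures (horizontal axes), 1 point per library with colour and symbol giving the genotype and lines joining the cultures of a genotype. NOTCH2KO lies above the other lines in every culture for DKK1, SFRP1, WNT7B, AXIN2 and TCF7L1, and WNT5A peaks in the Jagged1 DMSO culture of each genotype.

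The comparisons between genotypes asked which of these genes differed in cells lacking NOTCH1 or NOTCH2. Differences were fitted as log2(TPM + 1) over the 4 cultures with limma, and a gene was called when its Benjamini-Hochberg adjusted p over 17621 genes was under 0.05. The residual spread measured how far the genotypes departed from parallel profiles over the cultures, and independent cultures of the same kind were not part of it. In NOTCH1KO, 2 of the 10 genes fell against WT (DKK3 and TCF7L1) and 0 rose, where 12.8% of all genes fell and 10.7% rose. In NOTCH2KO, 5 rose against WT (DKK1, SFRP1, WNT7B, AXIN2 and DKK3) and 0 fell, where 12.0% of all genes rose and 7.35% fell. Between the knockout lines, 6 were higher in NOTCH2KO (DKK1, DKK3, SFRP1, TCF7L1, AXIN2 and WNT7B) and 1 was lower (WNT5A), where 19.8% of all genes were higher and 11.9% lower. The median log2 difference of the 10 genes was -0.22, 0.48 and 0.75 in the 3 comparisons, and that of all genes was 8.85e-05, 0.06 and 0.07. The comparisons with WT share the WT libraries, and each shares a knockout line with the comparison between the knockouts. The 10 genes were chosen with earlier results of these data known. Their counts and medians therefore describe them and do not test whether WNT genes differ more than other genes.

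**Figure D2:**
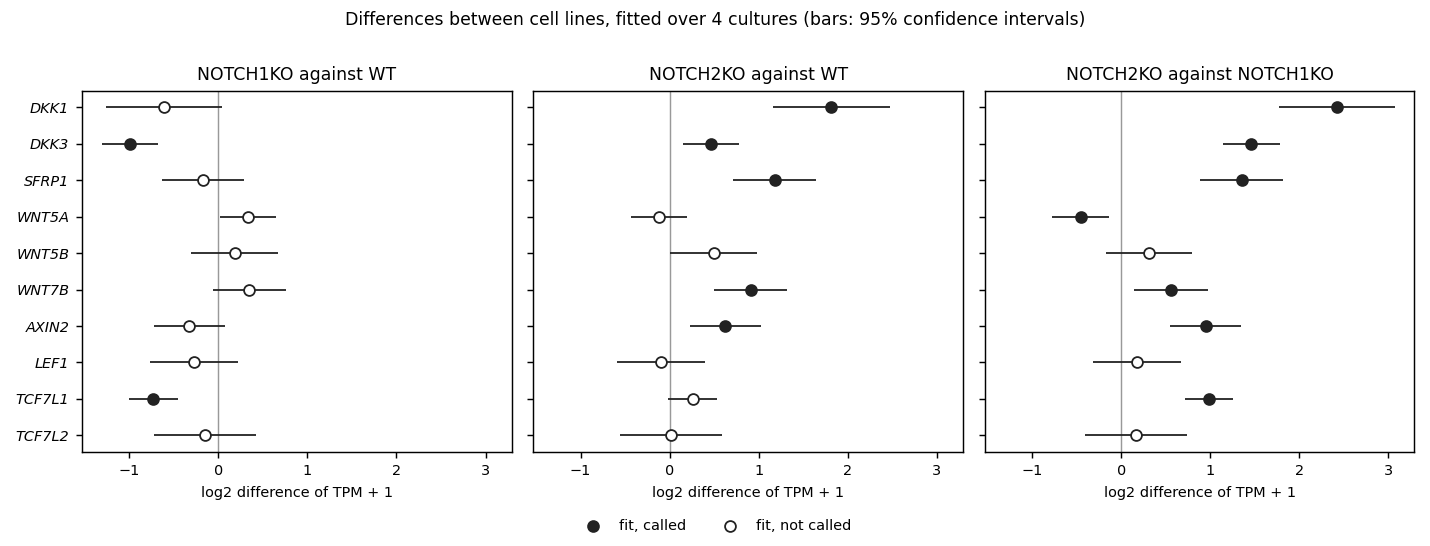
Fitted log2 differences of TPM + 1 (horizontal axes) for the 10 genes in the 3 genotype comparisons, with 95% confidence intervals as bars and filled points for genes called at an adjusted p under 0.05. DKK1 has the largest difference, 1.82 in NOTCH2KO against WT and 2.42 between the knockout lines, and LEF1 and TCF7L2 have intervals that include 0 in all 3 panels.

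DKK1 (ENSG00000107984, GRCh37 chromosome 10, 54074056 to 54077802), the antagonist with 3 TCF and LEF cores in the promoter above, separated NOTCH2KO from the other lines. Its TPM in WT was 37.9 on Fc with DMSO, 55.01 on Fc with DAPT, 12.4 on Jagged1 with DMSO and 22.7 on Jagged1 with DAPT, the order used for all values that follow. It was 15.9, 26.3, 9.57 and 25.3 in NOTCH1KO and 88.0, 115.9, 91.0 and 109.7 in NOTCH2KO. The lowest NOTCH2KO library thus lay above the highest of either other line. The mean of 101.1 ± 13.7 TPM in NOTCH2KO was 3.16 times that of WT (32.0 ± 18.6, log2 difference 1.82, 95% confidence interval 1.16 to 2.47, limma adjusted p = 0.00408) and 5.24 times that of NOTCH1KO (19.3 ± 7.996, 2.42, adjusted p = 0.000591). Its value in NOTCH1KO against WT was -0.61 (interval -1.26 to 0.05, adjusted p = 0.16), with ranges that overlapped. In bulk RNA, a change in the number of cells that make a transcript and a change in the amount per cell cannot be told apart, here as for every gene below.

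SFRP1 (ENSG00000104332, chromosome 8, 41119481 to 41167016), the other antagonist that separated NOTCH2KO, had 43.8, 47.5, 34.8 and 55.3 TPM in WT, and NOTCH1KO had 35.6, 53.9, 28.8 and 44.2. In NOTCH2KO it had 94.4, 84.0, 128 and 109 TPM, all above every library of the other lines. The mean of 104 ± 19.2 was 2.29 times that of WT (45.4 ± 8.505, log2 difference 1.18, 0.72 to 1.64, adjusted p = 0.00599) and 2.56 times that of NOTCH1KO (40.6 ± 10.9, 1.35, adjusted p = 0.00174). WT and NOTCH1KO differed by -0.17 (interval -0.64 to 0.29, adjusted p = 0.573). The SFRP1 and DKK1 calls in NOTCH2KO held without any 1 of the 12 libraries and in each of the 9 other ways of processing, with log2 differences from WT between 0.94 and 1.36 for SFRP1 and between 1.54 and 2.02 for DKK1 when a library was left out.

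DKK3 (ENSG00000050165, chromosome 11, 11984653 to 12031316), a Dickkopf-family protein whose action on WNT signaling depends on the cell, fell in NOTCH1KO. It had 80.7, 52.2, 150.4 and 61.7 TPM in WT and 39.3, 30.4, 63.5 and 30.9 in NOTCH1KO, lower in each of the 4 matched cultures although the ranges over all cultures overlapped. The mean was 41.0 ± 15.5 against 86.3 ± 44.4, or 0.476 times WT (log2 difference -0.996, -1.31 to -0.68, adjusted p = 0.00198), and this call held without any 1 library. In NOTCH2KO it had 110.7, 86.1, 141 and 108 TPM, 3 of them above the matched WT value. The difference from WT was 0.47 (adjusted p = 0.0468), a call that held only without WT or NOTCH2KO on Jagged1 with DMSO, was lost without each of the other 10 libraries (adjusted p up to 0.141) and was lost in 5 of the 9 other ways of processing, among them coverage in place of TPM (0.46, adjusted p = 0.161). Between the knockout lines the ranges did not overlap, and DKK3 was 2.72 times higher in NOTCH2KO (1.46, adjusted p = 0.000209).

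Of the ligands, WNT7B (ENSG00000188064, chromosome 22, 46316242 to 46373009) rose in NOTCH2KO. Across the WT cultures it had 24.2, 27.8, 13.8 and 20.5 TPM, and the NOTCH2KO cultures had 43.8, 45.2, 34.5 and 37.8, without overlap. The mean was 40.3 ± 5.07 against 21.6 ± 5.98, or 1.87 times (log2 difference 0.91, 0.49 to 1.32, adjusted p = 0.0108). NOTCH1KO had 32.7, 20.8, 22.2 and 34.4 TPM and overlapped WT. Its difference from WT was 0.35 (adjusted p = 0.197), and NOTCH2KO exceeded it by 0.56 (adjusted p = 0.0453), a call that held without WT on Fc with DAPT, WT on Jagged1 with DMSO or NOTCH1KO on Jagged1 with DAPT and was lost without each of the other 9 libraries (adjusted p up to 0.126). It was also lost in 5 of the 9 other ways of processing (adjusted p up to 0.0785).

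WNT5A (ENSG00000114251, chromosome 3, 55499743 to 55523973) had 113, 55.5, 230.0 and 78.3 TPM in WT. The NOTCH1KO cultures gave 159, 93.1, 205 and 95.6, and the NOTCH2KO cultures 95.2, 61.1, 171 and 81.1. The lines overlapped broadly. Against WT the differences were 0.34 in NOTCH1KO (adjusted p = 0.115) and -0.12 in NOTCH2KO (adjusted p = 0.59). NOTCH2KO was below NOTCH1KO in all 4 cultures (-0.46, adjusted p = 0.0362), but this call was lost without 8 of the 12 libraries (adjusted p up to 0.114) and in 3 of the 9 other ways of processing. It held without WT on Fc with DAPT, WT or NOTCH1KO on Jagged1 with DMSO or NOTCH2KO on Jagged1 with DAPT.

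WNT5B (ENSG00000111186, chromosome 12, 1639057 to 1756409) had 20.1, 10.5, 10.3 and 8.13 TPM in WT. The NOTCH1KO cultures gave 17.98, 19.7, 8.43 and 10.2, and the NOTCH2KO cultures 33.7, 13.1, 12.6 and 13.8. The NOTCH2KO value was above WT in all 4 cultures, with a difference of 0.49 (interval 0.01 to 0.98, adjusted p = 0.145) that was not called, though it was without NOTCH1KO on Fc with DAPT. Its highest library, NOTCH2KO on Fc with DMSO, was also the one in which the deposited coverage of WNT5B stood out, as given below.

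AXIN2 (ENSG00000168646, chromosome 17, 63524681 to 63557765), the target gene of β-catenin, was the lowest of the 10. Its TPM was 1.49, 2.21, 2.30 and 1.40 in WT. The NOTCH1KO cultures gave 1.08, 0.869, 1.54 and 1.59, and the NOTCH2KO cultures 4.21, 2.95, 3.37 and 2.94, where each library was above all those of the other lines. The mean of 3.37 ± 0.596 in NOTCH2KO was 1.82 times that of WT (1.85 ± 0.472, log2 difference 0.62, adjusted p = 0.0388) and 2.65 times that of NOTCH1KO (1.27 ± 0.352, 0.95, adjusted p = 0.00439). The call against WT was lost without 9 of the 12 libraries (adjusted p up to 0.125), all but WT on Fc, NOTCH1KO on Fc and NOTCH1KO on Jagged1, each with DAPT, and in 4 of 8 other ways of processing. These were a pseudocount of 0.1 (0.85, adjusted p = 0.0559), no filter on low values (adjusted p = 0.07), centring on the median (0.57, adjusted p = 0.0579) and quantile normalization (0.49, adjusted p = 0.0767), while the call against NOTCH1KO held in every one of these settings that could be run. NOTCH1KO against WT gave -0.33 (adjusted p = 0.208). On the log2(TPM + 1) scale these differences understate those of a gene at this level.

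Of the DNA-binding factors, TCF7L1 (ENSG00000152284, chromosome 2, 85360533 to 85537511), which often acts as a repressor, separated the 3 lines. Its TPM was 7.05, 6.95, 6.77 and 6.73 in WT. The NOTCH1KO cultures gave 4.31, 2.65, 4.04 and 4.22, and the NOTCH2KO cultures 8.32, 8.24, 8.82 and 8.29, with no overlap between any pair of lines. It fell in NOTCH1KO to 3.80 ± 0.777 against 6.87 ± 0.152, or 0.553 times WT (log2 difference -0.73, -1.003 to -0.45, adjusted p = 0.00425), and this call held without any 1 library. The NOTCH2KO mean of 8.42 ± 0.270 was 1.22 times WT (0.26, -0.02 to 0.53, adjusted p = 0.176) and was not called, and it was 2.21 times NOTCH1KO (0.99, adjusted p = 0.000678).

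LEF1 and TCF7L2 were called in no genotype comparison. LEF1 (ENSG00000138795, chromosome 4, 108968701 to 109090112), which is both a partner and a target of β-catenin, had 35.2, 17.7, 26.9 and 18.6 TPM in WT. The NOTCH1KO cultures gave 17.2, 20.7, 20.4 and 19.8, and the NOTCH2KO cultures 17.8, 26.3, 24.8 and 20.5. The differences from WT were -0.27 (interval -0.76 to 0.22, adjusted p = 0.402) and -0.09 (-0.59 to 0.40, adjusted p = 0.802). TCF7L2 (ENSG00000148737, chromosome 10, 114710009 to 114927437), the main TCF factor of many epithelia, had 6.57, 12.6, 8.53 and 10.7 TPM in WT. The NOTCH1KO cultures gave 10.7, 5.25, 8.84 and 9.44, and the NOTCH2KO cultures 10.96, 6.41, 8.88 and 12.5. Its differences from WT were -0.15 (-0.73 to 0.42, adjusted p = 0.695) and 0.01 (-0.56 to 0.58, adjusted p = 0.985), the widest intervals of the 4 nuclear and feedback genes.

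The culture comparisons asked whether the genes followed Notch activation by Jagged1 and its block by DAPT, with 3 libraries per culture, 1 of each genotype. With limma, 0 of the 10 genes were called in any of the 4 comparisons. Among all genes tested, 0.0114% were higher and 0% lower on Jagged1 than on Fc in DMSO, and 0% were higher and 0.0284% lower with DAPT on Jagged1. On Fc, DAPT raised 0.0170% of genes and lowered 0.0170%, and under DAPT 0.00568% were higher and 0% lower on Jagged1 than on Fc. At an unadjusted p under 0.05, the comparisons held 4, 3, 3 and 0 of the 10 genes, and 1901, 1939, 1082 and 836 of the 17621 genes. Each culture enters 2 of the 4 comparisons, so these share libraries.

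WNT5A had the most regular culture profile, with the highest value of each genotype on Jagged1 in DMSO and both DAPT values below both DMSO values in each genotype. The mean was 202 ± 29.5 TPM on Jagged1 in DMSO, 122 ± 32.9 on Fc in DMSO, 85.0 ± 9.30 on Jagged1 with DAPT and 69.9 ± 20.3 on Fc with DAPT (n = 3). On Jagged1, the value with DAPT was 0.341 times that with DMSO in WT, 0.467 in NOTCH1KO and 0.474 in NOTCH2KO, without overlap of the cultures. The log2 difference was -1.23 (-1.60 to -0.87), and the adjusted p of 0.0695 missed the threshold. On Fc, the value with DAPT was 0.490, 0.586 and 0.642 times that with DMSO in the same genotypes (-0.80, adjusted p = 0.43). On Jagged1 against Fc in DMSO the ratios were 2.03, 1.29 and 1.80 (0.74, adjusted p = 0.241), and under DAPT they were 1.41, 1.03 and 1.33 (0.31, adjusted p = 1).

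When the DAPT difference was averaged over both plates, 6 libraries against 6, WNT5A fell with DAPT (log2 difference -1.02, -1.28 to -0.76, limma adjusted p = 0.0139), lower in 6 of 6 matched pairs. It was the only 1 of the 10 genes called in this average, in which 0.0681% of all genes rose and 0.244% fell. The call held in 8 of 9 other ways of processing and was lost with a model of culture alone (adjusted p = 0.0974). Leaving out 1 library gave log2 differences between -1.10 and -0.93, and the call held for 7 of the 12. It was lost, with adjusted p up to 0.0659, without WT on Fc with DMSO, WT or NOTCH1KO on Jagged1 with DAPT, NOTCH1KO on Fc with DMSO or NOTCH2KO on Fc with DAPT.

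DKK3 had the next most regular profile. On Jagged1, its value with DAPT was 0.410 times that with DMSO in WT, 0.487 in NOTCH1KO and 0.766 in NOTCH2KO (-0.89, -1.25 to -0.53, adjusted p = 0.107), and on Fc the ratios were 0.647, 0.774 and 0.777 (-0.45, adjusted p = 0.747). Over both plates the difference was -0.67 (adjusted p = 0.0635), lower in each of the 6 pairs but not called. It was called with library weights (-0.67, adjusted p = 0.0301) and without NOTCH2KO on Jagged1 with DMSO (-0.77, adjusted p = 0.0174). On Jagged1 against Fc in DMSO it was 1.86, 1.62 and 1.27 times higher (0.64, adjusted p = 0.271).

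DKK1 ran the other way, with a higher value under DAPT in all 6 matched pairs. The ratios to DMSO were 1.83, 2.65 and 1.21 on Jagged1 and 1.45, 1.65 and 1.32 on Fc for WT, NOTCH1KO and NOTCH2KO, and the difference over both plates was 0.67 (0.14 to 1.20, adjusted p = 0.354). On Jagged1 against Fc in DMSO, DKK1 was at 0.326 times in WT, 0.6002 in NOTCH1KO and 1.03 in NOTCH2KO (-0.72, adjusted p = 0.473). In WT the 2 Jagged1 libraries (12.4 and 22.7 TPM) were below the 2 Fc libraries (37.9 and 55.01).

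WNT5B was lower on Jagged1 than on Fc in DMSO in every genotype, at 0.510, 0.469 and 0.372 times (-1.09, -1.65 to -0.53, adjusted p = 0.258), without overlap of the cultures. WNT7B was lower there too, with a log2 difference of -0.55 (adjusted p = 0.429) in 3 of 3 genotypes. TCF7L2 was higher with DAPT on Jagged1 in 3 of 3 genotypes without overlap of the cultures (0.28, adjusted p = 0.769). SFRP1, AXIN2, LEF1, TCF7L1 and TCF7L2 had differences between -0.27 and 0.46 in the 4 culture comparisons, with no adjusted p under 0.637. TCF7L1 was the flattest within WT and NOTCH2KO, where its 4 cultures lay between 6.73 and 7.05 and between 8.24 and 8.82 TPM.

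**Figure D3:**
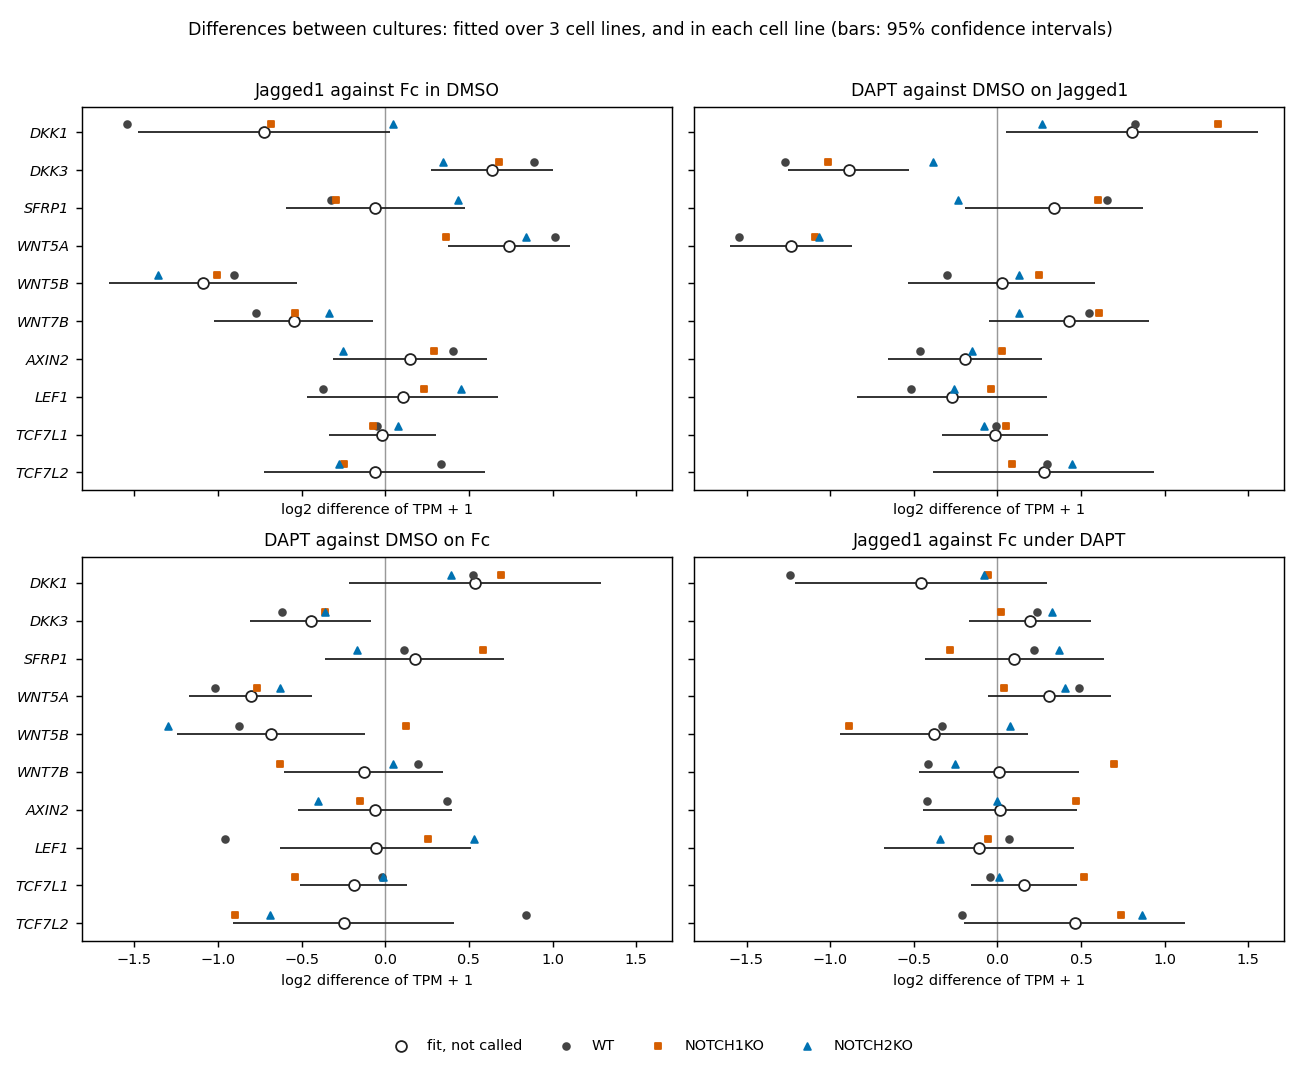
Log2 differences of TPM + 1 (horizontal axes) in the 4 culture comparisons, as fitted over the 3 genotypes (open circles, 95% confidence intervals as bars) and in each genotype (small symbols). For WNT5A with DAPT on Jagged1 the 3 genotypes lie between -1.54 and -1.07, and for LEF1 and TCF7L2 with DAPT on Fc they lie on both sides of 0.

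Whether the culture response differed between genotypes was asked with interaction terms, which left 4 residual degrees of freedom. None of the 10 genes was called by limma for DAPT in NOTCH1KO or NOTCH2KO against WT, where 0.0114% and 0% of all genes were called, or for the Jagged1 DMSO culture against the other 3, where 0.0851% were called in each knockout line. At an unadjusted p under 0.05 there were 1, 2, 1 and 2 of the 10 genes, and 592, 592, 954 and 1038 genes in all. DKK3 had the smallest unadjusted value, with a response to the Jagged1 DMSO culture that was lower in NOTCH2KO than in WT by 0.75 on the log2 scale (log2 difference -0.75, -1.25 to -0.24, adjusted p = 0.624). For SFRP1 the same contrast was 0.90 (0.15 to 1.65, adjusted p = 0.784), its level in that culture being the highest of the 4 in NOTCH2KO and the lowest of the 4 in both other lines. For LEF1 the DAPT response exceeded that of WT by 0.84 in NOTCH1KO and 0.87 in NOTCH2KO (adjusted p = 1 for both).

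Deposited read coverage offered a second reading of each gene. Coverage scaled to the same total as TPM was a steady multiple of TPM for SFRP1 (between 1.84 and 1.87) and WNT7B (0.772 to 0.834) over the libraries. It was a small share of TPM for WNT5B (0.0151 to 0.0365) and TCF7L1 (0.0614 to 0.0791), and it moved between libraries by 3.02 times for TCF7L2, 2.42 times for WNT5B, 1.97 times for DKK3 and 1.81 times for LEF1. For LEF1 the share was 0.185 in WT on Fc with DMSO, the library with its highest TPM, and between 0.233 and 0.335 elsewhere. For WNT5B it was 0.0365 in NOTCH2KO on Fc with DMSO, the library with its highest TPM, and at most 0.0249 elsewhere. For DKK3 it was 0.122 in NOTCH1KO on Jagged1 with DAPT and between 0.211 and 0.240 elsewhere. With coverage in place of TPM, DKK3 fell by 1.29 on the log2 scale in NOTCH1KO (adjusted p = 0.0037) and TCF7L1 by 0.86 (adjusted p = 0.00109). The sources used here do not say how coverage was averaged over a gene, and the part of these shifts in the results was not tested.

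**Figure D4:**
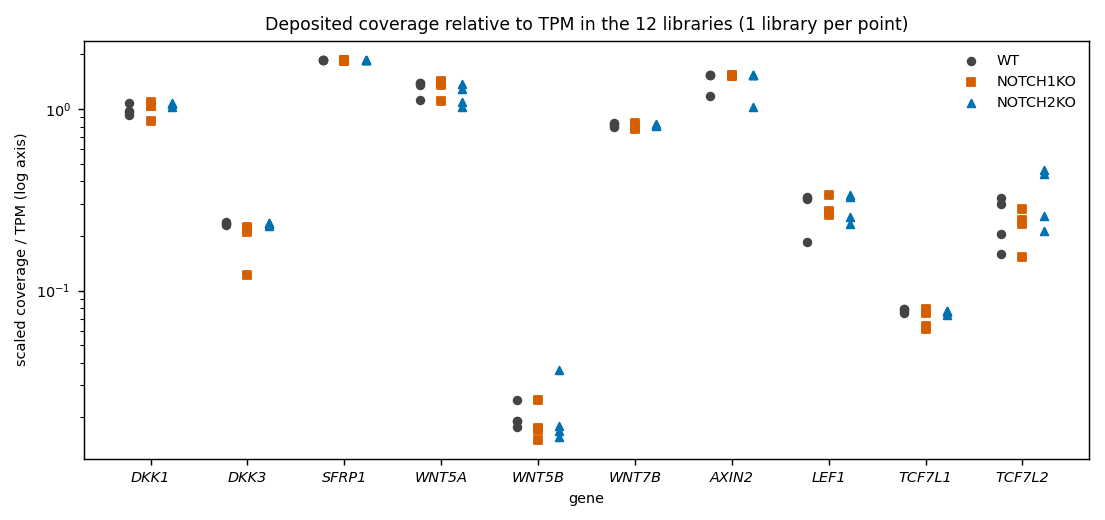
Coverage scaled to the TPM total and divided by TPM (vertical log axis) for each gene (horizontal axis), 1 point per library, with colour and symbol giving the genotype. SFRP1 holds at 1.84 to 1.87, whereas TCF7L2 spreads between 0.154 and 0.464 and WNT5B between 0.0151 and 0.0365.

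Other genes of the pathway were read from lists by role, 105 genes in all, of which 72 passed the filter. In NOTCH1KO against WT, 12 were higher and 9 lower, or 16.7% and 12.5% beside 10.7% and 12.8% of all genes. In NOTCH2KO against WT, 19 were higher and 3 lower, or 26.4% and 4.17% beside 12.0% and 7.35%. Between the knockout lines, 25 were higher and 9 lower in NOTCH2KO, or 34.7% and 12.5% beside 19.8% and 11.9%. Without the 10 genes described here, 62 genes remained, with 12 higher and 7 lower in NOTCH1KO, 14 higher and 3 lower in NOTCH2KO, and 19 and 8 between the knockout lines. The median log2 difference of the 62 was 0.03, 0.26 and 0.24, beside 8.85e-05, 0.06 and 0.07 for all genes. None of the 72 was called in a culture comparison. These lists, too, were chosen with earlier results of these data known, so their shares are a description.

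Among the secreted antagonists and their receptors, 9 of 14 genes were tested. In NOTCH1KO against WT, 3 were higher and 2 lower (33.3% and 22.2%, beside 10.7% and 12.8% of all genes). In NOTCH2KO against WT, 6 were higher and 1 lower (66.7% and 11.1%, beside 12.0% and 7.35%). The 6 include DKK1, DKK3 and SFRP1, which, like the list, were chosen with earlier results of these data known. SOST, which encodes the LRP5 and LRP6 antagonist sclerostin, rose in both lines, to 3.83 TPM in NOTCH1KO (log2 difference 1.78, adjusted p = 0.000173) and 2.57 in NOTCH2KO (1.38, adjusted p = 0.000759) from 0.368 in WT. Its WT mean was below the filter of 1 TPM and rests on few reads. SOST was tested only because the knockout lines raised its mean over the 12 libraries to 2.26 TPM, so the filter favoured these calls. SFRP5, a relative of SFRP1, fell in NOTCH1KO from 5.24 to 1.38 TPM (-1.25, adjusted p = 0.00694) and was the 1 lower gene in NOTCH2KO (-1.11, adjusted p = 0.0126). Antagonist genes thus did not move in one direction within a line.

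Of the 14 receptors and co-receptors tested, 1 rose and 3 fell in NOTCH1KO (7.14% and 21.4%, beside 10.7% and 12.8% of all genes). In NOTCH2KO 3 rose and 1 fell (21.4% and 7.14%, beside 12.0% and 7.35%). LRP6, the co-receptor that DKK1 binds, rose in NOTCH1KO (6.79 against 4.35 TPM, 0.58, adjusted p = 0.0119) and fell in NOTCH2KO (2.50 TPM, -0.58, adjusted p = 0.0143). The chromosomal neighbours of LRP6 were not read, so a shift of its whole chromosome segment was not examined. ROR2, a receptor for WNT5A, fell in NOTCH1KO from 2.61 to 1.40 TPM (-0.60, adjusted p = 0.016). FZD7 rose in NOTCH2KO from 11.3 to 16.2 TPM (0.49, adjusted p = 0.00866). In the R-spondin axis, with 5 of 9 genes tested, LGR6 and ZNRF3 rose in NOTCH1KO (0.55 and 0.47) and RSPO4 in NOTCH2KO (0.53). Over the libraries, LGR6 had a mean of 1.14 TPM but a median of 0.927. It thus passed the filter of 1 TPM only through its higher libraries, which may have favoured its call. Of 13 genes of the cytoplasmic complexes, GSK3B and CTNNB1, the gene of β-catenin, rose in NOTCH1KO (0.41 and 0.37), and AXIN2 was the only 1 called in NOTCH2KO against WT.

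The lists that follow are read against the same background, 10.7% higher and 12.8% lower in NOTCH1KO and 12.0% and 7.35% in NOTCH2KO. Among 12 TCF factors and nuclear cofactors, 2 rose and 3 fell in NOTCH1KO (16.7% and 25%), and 3 rose and 1 fell in NOTCH2KO (25% and 8.33%). The β-catenin cofactor gene BCL9L fell in NOTCH1KO from 22.9 to 12.1 TPM (-0.87, adjusted p = 0.00058), the largest change of the list there, ahead of TCF7L1. TLE1, a corepressor that binds TCF factors, rose in NOTCH2KO from 12.8 to 22.0 TPM (0.77, adjusted p = 0.0318), where BCL9 rose as well (0.62, adjusted p = 0.0258). Of 10 target genes of β-catenin tested, 2 rose and 2 fell in NOTCH1KO (20% each), and 3 rose and 0 fell in NOTCH2KO (30% and 0%). TNFRSF19 rose in both (1.51 and 0.99), while CCND1, which encodes cyclin D1, fell in NOTCH1KO from 242 to 152 TPM (-0.67, adjusted p = 0.00093). The 3 that rose in NOTCH2KO were DKK1, AXIN2 and TNFRSF19, so that 2 of them are among the 10 genes. In the planar polarity branch, 1 of 9 genes rose in NOTCH1KO (PRICKLE1, 0.69, or 11.1%) and 3 in NOTCH2KO (33.3%), led by CELSR3 (0.92) and CELSR2 (0.72), and 0 fell in either.

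Cell lines can differ in whole chromosome segments, so each gene was set beside the other protein-coding genes within 5 Mb that had a mean TPM of at least 5. In NOTCH2KO against WT, the 10 neighbours of DKK1 had a median log2 difference of 0.09, beside 1.82 for DKK1 and 0.07 for all genes at that level. The 34 neighbours of SFRP1 had 0.20, the 77 of WNT7B 0.23 and the 43 of AXIN2 0.19, each below the difference of the gene itself. The 38 neighbours of DKK3 had -0.05 in NOTCH1KO, and the 29 of TCF7L1 had 0.08, beside -0.996 and -0.73 for the genes themselves. In NOTCH2KO against WT, however, TCF7L1 was at 0.26 beside 0.27 for its 29 neighbours, of which 9 were called higher and 0 lower. Between the knockout lines, WNT7B was at 0.56 beside 0.36 for its 77 neighbours, of which 30 were called higher and 2 lower. There AXIN2 was at 0.95 beside 0.24 for its 43 neighbours, with 16 called higher and 1 lower. SFRP1 was at 1.35 beside 0.30 for its 34, with 10 called higher and 0 lower. The medians around DKK1, DKK3, TCF7L1 and WNT5A were -0.08, 0.05, 0.07 and 0.08, beside 0.09 for all genes at that level. WNT5B lies near the end of the short arm of chromosome 12, where its 34 neighbours had a median of -0.48 in NOTCH2KO, with 18 called lower and 0 higher. WNT5B, at 0.49 (interval 0.01 to 0.98, not called), was thus above the median of its surroundings in that line. Its level there includes the NOTCH2KO library on Fc with DMSO in which its coverage stood out. With windows of 2 and 10 Mb the median around WNT5B was -0.48 and -0.43.

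**Figure D5:**
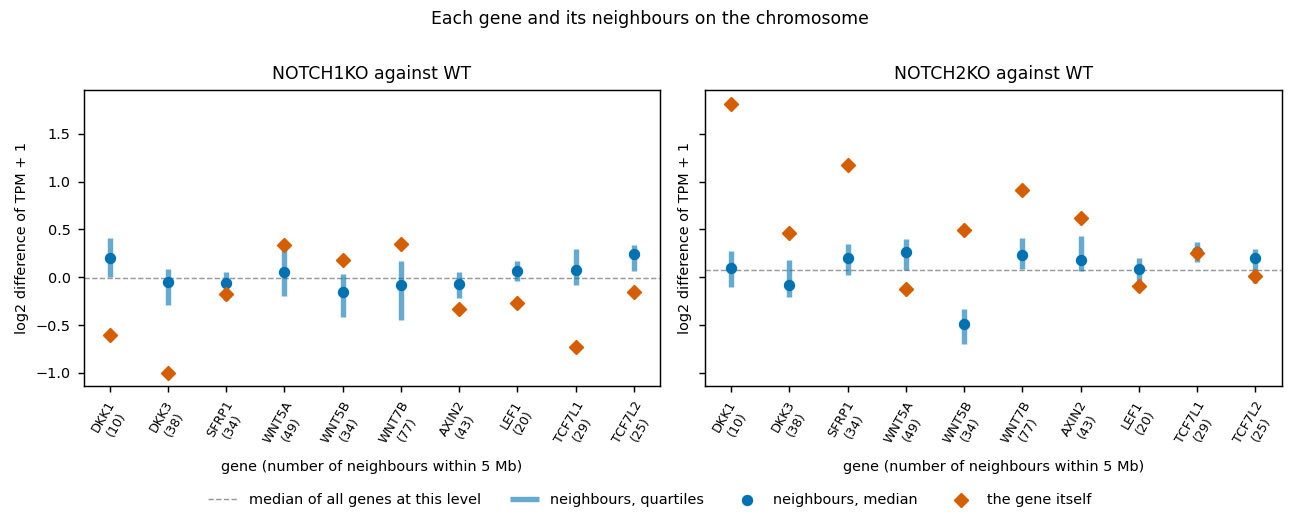
Log2 difference of TPM + 1 (vertical axis) of each gene (diamonds) and of its protein-coding neighbours within 5 Mb (circles for medians, bars for quartiles) in NOTCH1KO and NOTCH2KO against WT, with the number of neighbours under each name and the median of all genes at that level as a dashed line. The neighbours of WNT5B are at -0.48 in NOTCH2KO, whereas those of DKK1 are at 0.09 beside 1.82 for DKK1.

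As a description of shared profiles, each gene was correlated with the others and with 10403 protein-coding genes (10404 for AXIN2) over the 12 libraries, which share genotypes and cultures. DKK1 and SFRP1 had a Pearson r of 0.91, AXIN2 and TCF7L1 0.83, DKK3 and TCF7L1 0.82, and DKK1 and WNT5A -0.60. LEF1 and TCF7L2 had -0.62. Outside the 10, the most similar profiles were those of TRAF1, TINAGL1 and C1QTNF2 for DKK1 (r of 0.97, 0.95 and 0.95), KLF11, SOX9 and TRIM69 for SFRP1 (0.98, 0.97 and 0.96), and DUSP5, SPRY4 and RIPK4 for DKK3 (0.98, 0.98 and 0.97). For WNT5A they were GJA1, HIVEP2 and ATP1B1 (0.95, 0.94 and 0.94), for WNT7B GDPD5, ELFN2 and EHD4 (0.97, 0.94 and 0.94), for AXIN2 TP53I11, TOX2 and CRELD1 (0.96, 0.94 and 0.94) and for TCF7L1 GNB2, SLC22A17 and PPP6R2 (0.98 for each). WNT5B, LEF1 and TCF7L2 had lower best values, 0.83 with EIF4ENIF1, 0.82 with CCDC41 and 0.87 with ADCK1.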

How the data were processed

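Poly-A RNA of 12 DAOY cultures was made into stranded TruSeq libraries and read on a HiSeq2500 in single reads of 51 bases. Per the labels, base calls were converted with bcl2fastq 2.17 of the CASAVA suite and the genome was GRCh37. No aligner, quantifier, annotation or strand setting is named in the sources used here. The deposited TPM values had been scaled by the authors for transcript length and library total, and rows with the same gene identifier were summed. The deposited FPKM values were used only with coverage to derive depth. The deposited coverage, a signal per gene not scaled between libraries, was scaled here to a common total and used as an alternative. For the fits with coverage in place of TPM, each gene was also scaled so that its mean coverage equalled its mean TPM.

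Linear models were fitted to log2(TPM + 1) by limma 3.58.1 under R 4.3.3, with its trend option, over the 17621 genes whose TPM averaged 1 or more. Figures and joins used Python 3.11.15. Additive terms for genotype and culture left 6 residual degrees of freedom, and interaction models left 4. With 1 library per combination, the error behind each p-value is the departure from additivity and not a spread between repeats. Adjusted p-values (Benjamini-Hochberg, all genes of a comparison) under 0.05 were called. The scripts were tested on simulated data.

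The 10 genes and all gene lists were chosen with earlier results of these data known. Named genes were the 10, NOTCH1, NOTCH2, NRARP and HEY1, the 2 largest called changes of each WNT list per genotype comparison (the text gives most of those against WT), cell type markers, and the 3 genes most like each of the 10. HES1, RYK and PTK7 were named after their values were seen. Gene types came from GENCODE release 29. The settings applied to the average over both plates were chosen after seeing the data. Promoter sequences are from RefSeq, GRCh38.p14, and no coordinates were converted.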

Additional observations from a re-analysis of the deposited data

Results flagged for a closer look

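Within each genotype, the highest and lowest of the 4 cultures were set against the others by Dixon's criterion, for 30 groups of 4 libraries. The criterion is meant for repeats of a condition, but these 4 libraries are different cultures, so it serves here only as a description. Whether a flag reflects the culture or the library was not tested. In 3 groups a library stood apart. WNT5B was at 33.7 TPM in NOTCH2KO on Fc with DMSO, where the other NOTCH2KO cultures were between 12.6 and 13.8 TPM. TCF7L1 was at 2.65 TPM in NOTCH1KO on Fc with DAPT, where the others were between 4.04 and 4.31. TCF7L1 was also at 8.82 TPM in NOTCH2KO on Jagged1 with DMSO, where the others were between 8.24 and 8.32, a small gap beside a tight group.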

How the results depend on the processing

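The number of the 10 genes called stayed within 1.5 times of the main count under the other settings for NOTCH1KO against WT and for the knockout lines against each other, and leaving out each library in turn gave 2 to 3 and 5 to 7 genes. For NOTCH2KO against WT the count fell from 5 to 3 with no filter on low values and with libraries centred on the median, in both cases by loss of DKK3 and AXIN2, and leaving out each library gave 3 to 5. For DAPT against DMSO on Jagged1 the count rose from 0 to 1 with library weights and to 1 over both plates, and to 0 to 2 on leaving out each library, with 2 without NOTCH2KO on Jagged1 in DMSO. For DAPT on Fc it was 1 over both plates. In the other culture comparisons it was 0 on leaving out each library. On leaving out a library, WNT5A (without WT on Jagged1 in DMSO) or WNT7B (without NOTCH1KO on Fc with DAPT) was added in NOTCH1KO, and WNT5B (without NOTCH1KO on Fc with DAPT) in NOTCH2KO. None of the called genes reversed direction in any of these settings. AXIN2 could not be fitted with a filter at a mean TPM of 5. The model itself matched libraries by genotype and culture. No paired analysis was possible by replicate number, because a single library stood for every genotype in every culture and all carry the same number. By the estimated depth, a read in 1 kb was worth about 0.1 TPM, which by TPM limits AXIN2 the most. In every library, however, the deposited coverage was lower for WNT5B and TCF7L1 than for AXIN2. The spread between independent cultures of the same kind was not measured. The cause of the lost calls was not tested.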
